A study of Mus musculus with 12 samples.

Results

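The ITAM adaptors and the innate-like receptors, kinase and transcription factor that work with them were followed in tumor-infiltrating CD8+ T cells as 8 genes, namely Tyrobp, Fcer1g, Hcst, Ncr1, Fcgr3, Syk, Sh2d1b1 and Zbtb16, of the 52636 gene identifiers counted. The genes were chosen by name, as a pathway, but after the GFP+ and GFP- values of these same libraries were known, so they were selected on measured values and their differences between GFP+ and GFP- cells are given as a description with no test. Of the 8 genes, 7 passed the filter on low counts, as did 14173 genes in all, and Zbtb16 did not.

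The cells came from A2AR eGFP reporter mice, in which a BAC transgene with the regulatory sequences of Adora2a, an adenosine receptor gene, drives GFP, so that GFP marks cells that use those sequences and not receptor protein itself. All mice carried the transgene on a C57BL/6 background, all were female and all bore subcutaneous AT-3 ova tumors, a mammary carcinoma line that expresses ovalbumin. Mice were either non-treated or given anti-PD-L1 at days 14 and 18, and CD8+ T cells were sorted as GFP+ or GFP- at day 21. QuantSeq 3′ libraries, which read the 3′ end of each transcript, were made for each of the 4 combinations. There were 3 libraries for each, every one from a pool of mice. The 12 libraries had total counts from 11292699 to 19023900. Whether GFP+ and GFP- libraries came from the same pools is not stated.

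The labelled cells were checked first. Cd8a, the CD8 alpha chain, ranged from 799 to 1360 CPM (counts scaled to a common TMM-normalized library size) over the 4 groups, whereas Cd4 did not exceed 0.919 CPM. Adora2a was higher in GFP+ than in GFP- libraries by 1.51 (log2, SE 0.195, edgeR adjusted p = 0.027) without treatment and by 1.53 (SE 0.194, edgeR adjusted p = 0.0226) after anti-PD-L1. One GFP+ library of each treatment, KT13 (non-treated) and KT21 (anti-PD-L1), stood apart from the others, with median Spearman correlations to the other libraries of 0.941 and 0.935 against 0.967 to 0.977 for the other 10. Results are therefore given from the fit of all 12 libraries and from the same fit on 10 libraries, without KT13 and KT21. With 10 libraries Cd8a and Cd8b1, the CD8 beta chain, were lower in non-treated GFP+ than GFP- cells (log2 -0.47 and -0.69, edgeR adjusted p = 0.038 and 0.0159). Cd8a was also higher with anti-PD-L1 in GFP+ cells (0.55, edgeR adjusted p = 0.0103). None of these passed with 12 (edgeR adjusted p = 0.46, 0.405 and 0.0946).

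An ITAM is a short cytoplasmic tyrosine motif. Receptors such as the activating NK receptors and the activating Fc receptors carry no such motif and rely on small transmembrane adaptors that pair with them. Once Src-family kinases phosphorylate the ITAM, the tandem SH2 kinases Syk or Zap70 bind it and start signaling. Conventional CD8+ T cells use the ITAMs of the T cell receptor complex with Zap70, whereas NK cells, myeloid cells and innate-like T cells also use the adaptors DAP12 (Tyrobp) and FcR gamma (Fcer1g). DAP10 (Hcst) carries a PI3-kinase binding motif in place of an ITAM and serves NKG2D in T cells. In these bulk libraries, fewer cells that express a gene and less RNA of that gene per cell cannot be told apart.

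Several of these genes are neighbours, which matters for 3′ counting. In mm10, Tyrobp (ENSMUSG00000030579, chr7:30413760-30417585, plus strand) and Hcst (ENSMUSG00000064109, chr7:30417712-30419854, minus strand) converge, with 126 bases between their 3′ ends and no overlap of their annotations. Ncr1 (ENSMUSG00000062524) lies on the same chromosome at chr7:4337724-4345164. Fcer1g (ENSMUSG00000058715, chr1:171229572-171234365), Fcgr3 (ENSMUSG00000059498, chr1:171051174-171064935) and Sh2d1b1 (ENSMUSG00000102418, chr1:170277320-170286769) share a stretch of 0.957 Mb of chromosome 1 that holds 21 protein-coding genes. Syk (ENSMUSG00000021457) lies at chr13:52583173-52648792 and Zbtb16 (ENSMUSG00000066687) at chr9:48654297-48836222.

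The sequences upstream of 4 of the genes are shown because Fcer1g, Ncr1 and Sh2d1b1 had their lowest mean in the same group of libraries, whereas Hcst, printed for contrast, did not. Each is the 250 bases before a RefSeq transcript start (GRCm38.p6), 5′ to 3′ on the gene's own strand, at chr1:171234350-171234599 (Fcer1g, minus), chr7:4337465-4337714 (Ncr1, plus), chr1:170277068-170277317 (Sh2d1b1, plus) and chr7:30419855-30420104 (Hcst, minus), and the last bases of the Fcer1g window lie inside the annotated gene. Capitals mark matches on either strand to a RUNX motif (TGTGGT), an ETS motif (GGAAGT), a T-box motif (GGTGTG) or an AP-1 motif (TGAGTCA).
Fcer1g: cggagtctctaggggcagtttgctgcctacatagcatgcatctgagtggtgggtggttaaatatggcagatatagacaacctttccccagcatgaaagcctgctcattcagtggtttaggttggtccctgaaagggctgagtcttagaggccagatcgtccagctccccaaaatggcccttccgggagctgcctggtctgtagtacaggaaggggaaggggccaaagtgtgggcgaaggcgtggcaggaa
Ncr1: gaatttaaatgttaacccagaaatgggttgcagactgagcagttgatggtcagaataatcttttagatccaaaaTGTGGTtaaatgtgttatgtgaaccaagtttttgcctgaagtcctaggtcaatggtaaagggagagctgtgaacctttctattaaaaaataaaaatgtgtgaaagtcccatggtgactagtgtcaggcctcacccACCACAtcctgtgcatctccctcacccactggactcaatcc
Sh2d1b1: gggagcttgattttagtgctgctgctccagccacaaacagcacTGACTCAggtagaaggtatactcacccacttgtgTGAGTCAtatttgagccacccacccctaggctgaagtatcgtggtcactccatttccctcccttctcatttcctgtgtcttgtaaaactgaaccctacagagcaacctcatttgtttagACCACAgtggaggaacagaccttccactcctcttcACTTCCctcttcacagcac
Hcst: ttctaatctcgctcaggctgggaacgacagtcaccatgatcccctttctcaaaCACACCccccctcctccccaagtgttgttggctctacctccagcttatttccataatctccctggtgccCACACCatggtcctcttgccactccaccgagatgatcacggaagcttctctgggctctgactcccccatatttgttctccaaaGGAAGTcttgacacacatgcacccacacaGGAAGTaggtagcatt

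None of these exact letters stood in the Fcer1g window, and other forms of the same motifs were not searched. The Ncr1 window held the RUNX letters at -176 and -41, counted from the transcript start to the first base of the match. From a second Ncr1 start (window chr7:4337474-4337723) the same letters stood at -185 and -50. The bases after the start of the printed Ncr1 and Sh2d1b1 windows were not found in the annotated GENCODE transcripts. Those of the second Ncr1 window and of the Fcer1g and Hcst windows were. The Sh2d1b1 window held the RUNX letters at -54, the ETS letters at -19 and the AP-1 letters at -207 and -173. The Hcst window held the ETS letters at -45 and -16 and the T-box letters at -197 and -128. Of 32851 RefSeq windows of the same length, 14% held the RUNX letters, 19.7% the ETS letters, 16.3% the T-box letters and 4.46% the AP-1 letters, and the matches describe the sequence only. Tyrobp and Zbtb16 had no entry.

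Tyrobp encodes DAP12, the ITAM adaptor of activating NK and myeloid receptors, and was low in 1 group of libraries. Tyrobp stood at 17.9, 21.3 and 19.5 CPM in the non-treated GFP- libraries and at 9.76, 7.48 and 7.55 CPM in the anti-PD-L1 GFP- libraries. In GFP+ cells Tyrobp stood at 24.9, 24.1 and 21.8 CPM without treatment and at 22.2, 19.6 and 20.4 CPM after anti-PD-L1. The 3 GFP- libraries from treated mice lay below the other 9 with no overlap. The share of all genes tested with such a separation, here or for the genes below, was not counted. Nothing is therefore read from it as a trait of this set. In order of the group means, non-treated GFP+ (23.6 ± 1.59, SD, n = 3), treated GFP+ (20.8 ± 1.32) and non-treated GFP- (19.5 ± 1.7) overlapped each with the next, and treated GFP- (8.27 ± 1.3) stood apart below them. The non-treated GFP+ libraries (21.8 CPM or more) lay just above the non-treated GFP- libraries (21.3 CPM or less). These values rest on 340 counts in the treated GFP- group and on 880 to 1052 counts in each of the other groups.

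In GFP- cells Tyrobp was 2.36-fold lower after anti-PD-L1, a log2 difference of -1.24 (SE 0.186). This missed the threshold in the fit of 12 libraries (edgeR adjusted p = 0.0709) and passed it in the fit of 10 (log2 difference -1.24, SE 0.191, edgeR adjusted p = 0.000754), although neither KT13 nor KT21 belongs to the groups compared. The cause of this change was not tested. The genes were chosen knowing GFP+ to GFP- values that use the same treated GFP- libraries, so these adjusted p-values may be too small. With the 6 GFP- libraries alone in the fit the edgeR adjusted p was 0.00618. Leaving out 1 library at a time kept the difference between -1.38 and -1.16, with an adjusted p under 0.05 only without KT13 (0.0256) or without KT21 (0.0239) and up to 0.696 otherwise. In the fit of 12 libraries 0% of the 14173 genes passed in this comparison (0 genes with edgeR, 487 at an unadjusted p under 0.05, 33 with DESeq2), and in the fit of 10 libraries 0.373% of the 14747 genes did, of which 10 were higher and 45 lower. Tyrobp was the 1 gene among the 7 that passed there.

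In GFP+ cells the Tyrobp difference with anti-PD-L1 was -0.18 (SE 0.181, edgeR adjusted p = 0.961) in the fit of 12 libraries and -0.10 (SE 0.224, edgeR adjusted p = 0.966) in the fit of 10. None of the 7 genes passed in this comparison, in which 0.0141% of all genes passed with 12 libraries and 0.563% with 10. Averaged over GFP+ and GFP- cells, Tyrobp fell by 0.71 (log2, SE 0.13, edgeR adjusted p = 0.027) with 12 libraries and by 0.67 (SE 0.147, edgeR adjusted p = 0.0177) with 10, where 0.395% and 1.36% of all genes passed. Leaving out 1 library kept the difference between -0.78 and -0.65, but the call was kept only without KT20 or without KT21 and was lost without any 1 of the other 10 libraries (edgeR adjusted p up to 0.123).

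The treatment effect on Tyrobp in GFP+ cells minus that in GFP- cells was 1.06 (log2, SE 0.259) with 12 libraries and 1.13 (SE 0.294) with 10. This interaction is also the difference between the GFP+ to GFP- values on which the genes were chosen, so it is given as a description with no test, and a treatment effect that differs between GFP+ and GFP- cells is not shown. Over all genes, none passed the interaction test with either set of libraries (0% and 0%, with 295 and 632 genes at an unadjusted p under 0.05 in edgeR and 0 genes with DESeq2 on 12 libraries). The treatment comparisons in GFP- cells and over both share the 3 treated GFP- libraries with the comparison of GFP+ and GFP- cells after anti-PD-L1. That comparison was known when the genes were chosen, so the adjusted p-values of both treatment comparisons may be too small.

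**Figure D1:**
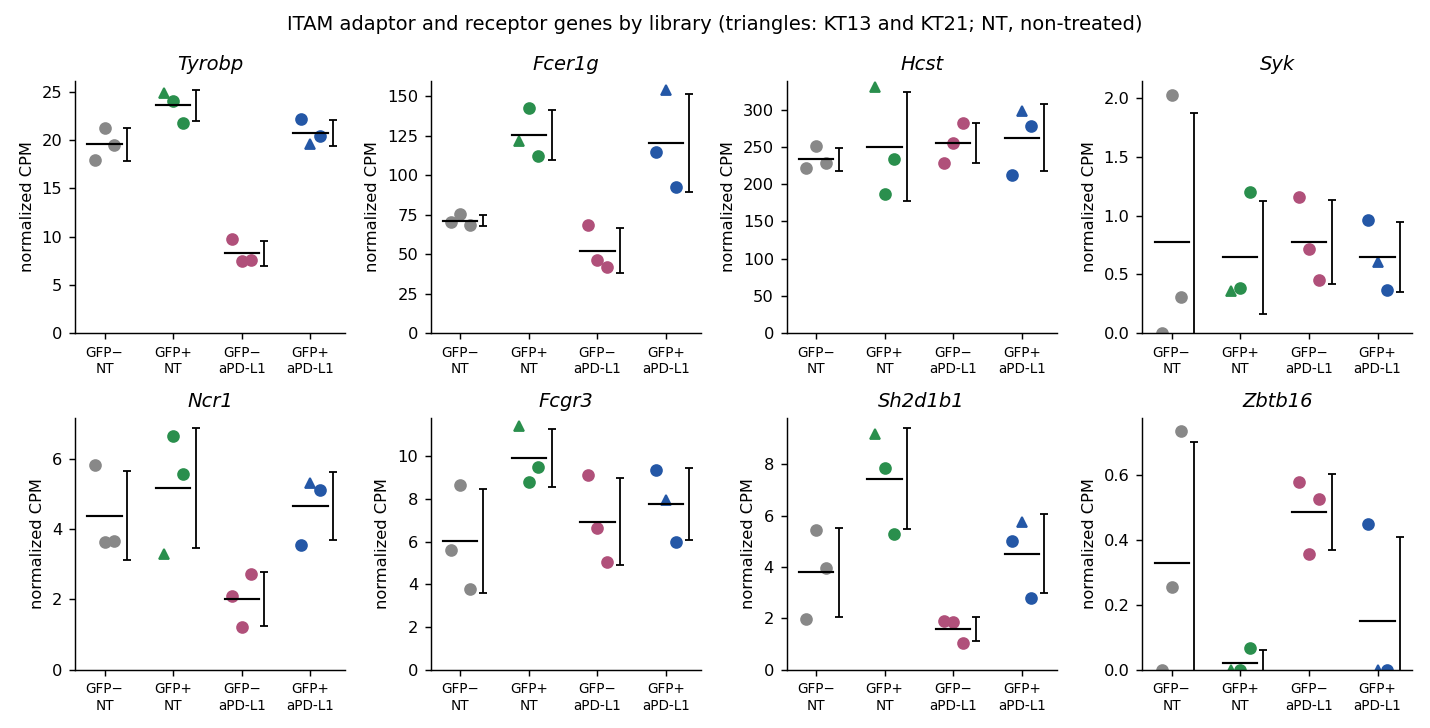
TMM-normalized CPM (y axis, from 0, a separate scale for each gene) of the 8 genes in each of the 12 libraries, grouped on the x axis by GFP and treatment, with points for libraries, triangles for KT13 and KT21, a line for the group mean and a bar for the SD (n = 3, drawn no lower than 0). The 3 anti-PD-L1 GFP- libraries sit at 7.48 to 9.76 CPM for Tyrobp, below the other 9 at 17.9 or more, whereas the Hcst groups overlap.

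Fcer1g encodes FcR gamma, the ITAM adaptor of the activating IgG and IgE receptors and of several NK receptors. Fcer1g stood at 70.3, 75.2 and 68.2 CPM in non-treated GFP- libraries and at 68.4, 46.1 and 42.1 CPM in treated GFP- libraries. In GFP+ cells it stood at 122, 143 and 112 CPM without treatment and at 115, 154 and 92.7 CPM after anti-PD-L1. All 6 GFP+ libraries lay above all 6 GFP- libraries, so the order followed GFP first, with the 2 GFP+ groups (126 ± 15.9 and 121 ± 30.9) overlapping each other and KT20 of the treated GFP- group reaching the lowest non-treated GFP- library. The GFP+ to GFP- difference was 0.82 (log2, SE 0.213) without treatment and 1.21 (SE 0.216) after anti-PD-L1, and 0.84 and 1.0 without KT13 and KT21. With anti-PD-L1 Fcer1g differed by -0.45 in GFP- cells (SE 0.213, edgeR adjusted p = 1 with 12 libraries and 0.451 with 10) and by -0.06 in GFP+ cells (SE 0.212, edgeR adjusted p = 1), and neither passed.

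Hcst encodes DAP10, the partner of NKG2D. Hcst stood at 222, 251 and 228 CPM and at 228, 256 and 282 CPM in GFP- libraries without and with treatment. In GFP+ libraries it stood at 331, 187 and 234 CPM without treatment and at 212, 298 and 278 CPM after anti-PD-L1. All 4 groups overlapped, and the widest spread, in non-treated GFP+ cells (251 ± 73.4), had KT13 at its top. The Hcst differences with anti-PD-L1 were 0.13 (log2, SE 0.201) in GFP- and 0.07 (SE 0.201) in GFP+ cells, each with an edgeR adjusted p of 1, and the GFP+ to GFP- difference without treatment was 0.10 with 12 libraries and -0.15 with 10. Klrk1, which encodes NKG2D, differed by 0.01 (SE 0.167) with treatment in GFP- cells and by 0.27 (SE 0.167) in GFP+ cells, with edgeR adjusted p of 1 and 0.863.

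Over the 7 genes, the GFP+ to GFP- difference had a median of 0.27 (log2) without treatment and 1.21 after anti-PD-L1 in the fit of 12 libraries, where the median over all genes tested was 0.002 and 0, and of 0.48 and 1.0 in the fit of 10. As a description of the values behind the choice of genes, in the fit of 12 libraries 0 and 1 of the 7 (Tyrobp) fell under the adjusted threshold in these 2 comparisons, where 0.00706% and 0.0282% of all genes did, and in the fit of 10 libraries 1 (Fcer1g) and 2 (Tyrobp and Fcer1g) did, where 0.339% and 0.17% of all genes did. Nothing is read from these counts, since the genes were chosen on these values, and after anti-PD-L1 Tyrobp fell under the threshold in 3 of the 12 fits that leave out 1 library. For Tyrobp the difference was 0.27 (SE 0.181) without treatment and 1.33 (SE 0.187) after it. The GFP- mean was 19.5 CPM without and 8.27 CPM with treatment, and the GFP+ mean 23.6 and 20.8 CPM.

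Ncr1 encodes NKp46, an activating NK receptor that signals through FcR gamma and CD3 zeta. Ncr1 stood at 5.84, 3.65 and 3.67 CPM in non-treated and at 2.1, 1.21 and 2.72 CPM in treated GFP- libraries. In GFP+ libraries it stood at 3.29, 6.65 and 5.58 CPM without treatment and at 3.54, 5.31 and 5.11 CPM after anti-PD-L1. As with Tyrobp, the 3 treated GFP- libraries lay below all others, but on 82 counts in that group and 194 to 235 in each of the others. How many of all genes tested share this order was not counted. The difference of -1.13 (log2, SE 0.419) in GFP- cells did not pass (edgeR adjusted p = 1 with 12 libraries and 0.506 with 10), nor did that of -0.16 (SE 0.405, edgeR adjusted p = 1) in GFP+ cells.

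Fcgr3 encodes the low-affinity IgG receptor CD16, which needs FcR gamma for surface expression. Fcgr3 stood at 5.62, 8.63 and 3.80 CPM and at 9.11, 6.63 and 5.06 CPM in GFP- libraries without and with treatment. In GFP+ libraries it stood at 11.4, 8.80 and 9.50 CPM and at 9.34, 7.96 and 6.0 CPM. Only the non-treated GFP+ and non-treated GFP- groups failed to overlap, and by a narrow margin. The treatment differences of 0.20 (log2, SE 0.335) in GFP- and -0.35 (SE 0.333) in GFP+ cells had edgeR adjusted p of 1 and 0.96. Fcgr3, Fcgr4 and the inhibitory Fcgr2b are similar in sequence, so reads could be split among them.

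**Figure D2:**
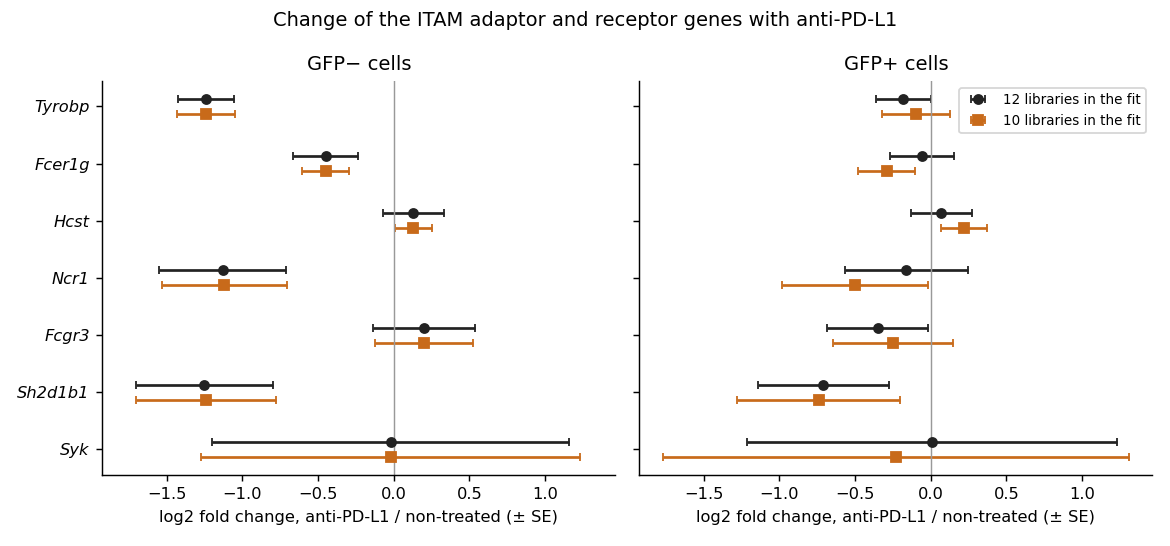
Log2 fold change of anti-PD-L1 against non-treated (x axis, with SE bars) for the 7 genes that passed the filter, in GFP- cells (left) and GFP+ cells (right), from the fits of 12 libraries (circles) and 10 libraries (squares). Tyrobp sits at -1.24 in GFP- cells in both fits and at -0.18 and -0.10 in GFP+ cells, and the bars of Syk span over 1 log2 unit to either side.

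Other receptors that pair with DAP12, FcR gamma or DAP10 were taken as a list of 26, of which 19 passed the filter. In the fit of 12 libraries none of the 19 passed in any treatment comparison, with a median difference of -0.68 (log2) in GFP- cells and -0.50 in GFP+ cells, where the median over all genes was -0.005 and -0.007. With 10 libraries the medians were -0.68 and -0.20. In GFP- cells 15 of the 19 had a negative difference. Among them Klra8 (Ly49H), which pairs with DAP12, stood at -1.24 (SE 0.501) and Klrb1a at -1.04 (SE 0.389). The high-affinity IgG receptor Fcgr1 stood at -1.37 (SE 0.713). Each had an edgeR adjusted p of 1. Klra8, Klrb1a and Fcgr1 rest on only 59, 128 and 50 counts in the treated GFP- libraries, and Klra8 and Fcgr1 were named after their values were seen. The other 4 of the 19 had a positive difference in GFP- cells. One of these was Klrc2 at 0.29 (SE 0.202), on 50082 counts in the treated GFP- libraries. The median gives each receptor the same weight, whatever its counts. Klrc2 (NKG2C) was higher by 0.40 (SE 0.09, edgeR adjusted p = 0.0225) over GFP+ and GFP- cells in the fit of 10 libraries only, as it stood at 0.52 (SE 0.143, edgeR adjusted p = 0.229) with 12.

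Klrb1c encodes NK1.1, which signals through FcR gamma. Klrb1c averaged 21.6 ± 7.73 and 16.2 ± 2.2 CPM in GFP- cells without and with treatment, and 49 ± 2.14 and 41.1 ± 3.28 CPM in GFP+ cells, with no overlap between GFP+ and GFP- libraries. The difference was 1.18 (log2, SE 0.222) without treatment and 1.34 (SE 0.225) after anti-PD-L1, with edgeR adjusted p of 0.157 and 0.0706 in the fit of 12 libraries and 0.0159 and 0.00764 in the fit of 10. Klrb1c was listed with earlier results of these data known, so these adjusted p-values may be too small. With anti-PD-L1 it differed by -0.42 (SE 0.223) in GFP- and -0.25 (SE 0.219) in GFP+ cells, and neither passed.

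Of 23 other receptors of NK and innate-like lymphocytes, all passed the filter, and 1, Klra7 (Ly49G), was higher in treated GFP+ than treated GFP- cells with 12 libraries (1.45, SE 0.208, edgeR adjusted p = 0.0298). With 10 libraries 5 were higher there, among them Klra7, Klra6, Klra1 and Cd7, and 1, Itgae, was lower, where 0.17% of all genes passed (14 higher and 11 lower). After anti-PD-L1 Itgae averaged 83.2 CPM in GFP+ and 158 CPM in GFP- libraries. Without treatment 3 (Klra6, Klra7 and Cd7) were higher in GFP+ than GFP- cells with 10 libraries, where 0.339% of all genes passed, and none with 12. These receptors too were listed with earlier results of these data known, so their adjusted p-values may be too small. In non-treated libraries Klra7 averaged 105 ± 4.59 CPM in GFP+ and 45.9 ± 9.69 CPM in GFP- cells. The Klra genes are near-identical copies in part, so reads could be assigned to the wrong member. With anti-PD-L1 none of the 23 passed in the fit of 12 libraries, where their median difference in GFP- cells was -0.01. In the fit of 10 libraries none passed in GFP- cells, Klrd1 was higher in GFP+ cells, and over GFP+ and GFP- cells 6 were higher (Klrd1, Klri2, Klre1, Klrc1, Il18r1 and Il2rb) and 2 lower (Cd7 and Klra6), where 1.36% of all genes passed.

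Syk encodes the tandem SH2 kinase of ITAM adaptors in NK, B and myeloid cells and was close to the limit of detection. Syk had 0, 40 and 5 counts in non-treated and 16, 10 and 6 counts in treated GFP- libraries. In GFP+ libraries it had 4, 6 and 18 counts without treatment and 15, 8 and 5 counts after anti-PD-L1. These correspond to 0 to 2.03 CPM, where a count of 3 corresponds to 0.152 to 0.267 CPM, and KT16 alone held 40 of the 45 counts of its group. The treatment differences of -0.02 (log2, SE 1.18) in GFP- and 0.01 (SE 1.22) in GFP+ cells leave changes of several fold in either direction undetectable at this depth. Zap70, the related kinase of the T cell receptor, was measured at 119 ± 19.1 and 116 ± 13.9 CPM in GFP- cells and at 130 ± 26.4 and 149 ± 38.7 CPM in GFP+ cells without and with treatment. Zap70 differed by -0.04 (SE 0.208) and 0.19 (SE 0.208) with treatment, with edgeR adjusted p of 1 and 0.974.

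The ITAM subunits of the T cell receptor, Cd3d, Cd3e, Cd3g and Cd247, bring Zap70 to the receptor. None of the 4 passed with 12 libraries, and their median treatment difference was 0.23 (log2) in GFP- and 0.17 in GFP+ cells. Cd247, the CD3 zeta chain that NKp46 also uses, differed by 0.15 (SE 0.166) in GFP- and 0.17 (SE 0.166) in GFP+ cells. Cd3g was higher over GFP+ and GFP- cells in the fit of 10 libraries (0.32, SE 0.0795, edgeR adjusted p = 0.0428), against 0.27 (SE 0.118, edgeR adjusted p = 0.627) with 12.

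Downstream of ITAM phosphorylation, 31 kinases, linkers and effectors were listed and 30 passed the filter. None of the 30 passed in a treatment comparison with either set of libraries, and their median difference was 0 in GFP- and 0.06 (log2) in GFP+ cells with 12. Lat, the membrane linker that Zap70 phosphorylates, was lower in non-treated GFP+ than GFP- cells in the fit of 10 libraries (-0.57, SE 0.117, edgeR adjusted p = 0.0345), and stood at -0.50 (SE 0.156, edgeR adjusted p = 0.596) with 12. Of 17 negative regulators, 16 passed the filter and none was called with 12 libraries, with median treatment differences of -0.01 and 0.11. Sla, the adaptor SLAP that lowers T cell receptor levels, was higher over GFP+ and GFP- cells with 10 libraries (0.36, SE 0.0855, edgeR adjusted p = 0.0311), and stood at 0.31 (SE 0.103, edgeR adjusted p = 0.374) with 12.

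**Figure D3:**
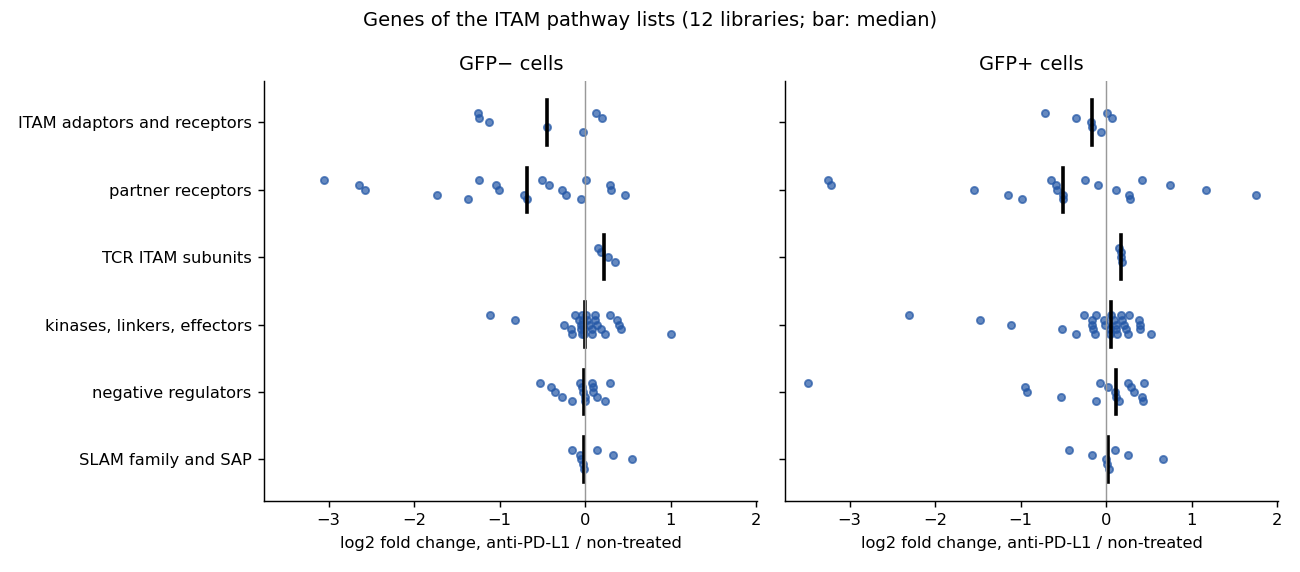
Log2 fold change of anti-PD-L1 against non-treated (x axis) for each tested gene (points) of 6 lists (rows) in GFP- cells (left) and GFP+ cells (right), from the fit of 12 libraries, with a bar at each list's median. The partner receptors, which include receptors of myeloid cells, have medians of -0.68 and -0.50 (the latter -0.20 in the fit of 10 libraries). The medians of the downstream kinases and of the negative regulators lie between -0.01 and 0.11.

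Sh2d1b1 encodes EAT-2, a SAP-family adaptor of SLAM receptors in NK and other innate-like cells. Sh2d1b1 stood at 1.99, 5.43 and 3.98 CPM in non-treated and at 1.88, 1.85 and 1.06 CPM in treated GFP- libraries. In GFP+ libraries it stood at 9.17, 7.85 and 5.31 CPM without treatment and at 5.02, 5.76 and 2.81 CPM after anti-PD-L1. The 3 treated GFP- libraries lay below all others, though KT14 (1.99 CPM) lay only just above KT20 (1.88 CPM), and their values rest on 66 counts in all. The difference of -1.25 (log2, SE 0.454) in GFP- cells did not pass (edgeR adjusted p = 1 with 12 libraries and 0.506 with 10), nor did -0.71 (SE 0.433, edgeR adjusted p = 0.861) in GFP+ cells. The GFP+ to GFP- difference was 0.97 (SE 0.433) and 1.5 (SE 0.456) without and with treatment. Of 9 SLAM receptors and SAP adaptors, 8 passed the filter and none was called in any comparison, and the near-identical paralog Sh2d1b2 had 2 counts over all libraries.

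Zbtb16 encodes PLZF, the transcription factor that directs innate-like T cell development. Zbtb16 had 0, 5 and 12 counts in non-treated and 8, 5 and 7 counts in treated GFP- libraries. In GFP+ libraries it had 0, 0 and 1 counts without treatment and 7, 0 and 0 counts after anti-PD-L1. By group these sum to 17 and 20 counts in GFP- and to 1 and 7 counts in GFP+ cells, and 5 of the 6 GFP+ libraries were at or under 1 count, below the floor of 3, so no fold change or test is given. Among 18 transcription factors of innate-like lymphocytes, 17 passed the filter with 12 libraries. Prdm1 (Blimp-1) rose by 1.05 (log2, SE 0.208, edgeR adjusted p = 0.0485) and Klf2 fell by 0.96 (SE 0.17, edgeR adjusted p = 0.0239) with anti-PD-L1 over GFP+ and GFP- cells. Ikzf2 (Helios) was higher in GFP+ cells by 0.99 (SE 0.168) and 0.97 (SE 0.168) without and with treatment, which passed with 10 libraries only (edgeR adjusted p = 0.00472 and 0.00427). This list was chosen with earlier results of these data known, so its adjusted p-values may be too small. Id2 was lower in non-treated GFP+ than GFP- cells with 10 libraries (-0.83, SE 0.18, edgeR adjusted p = 0.044) and higher with anti-PD-L1 in GFP+ cells (0.94, SE 0.194, edgeR adjusted p = 0.0182) and over GFP+ and GFP- cells (0.65, SE 0.125, edgeR adjusted p = 0.00487), none of which passed with 12 (edgeR adjusted p = 0.617, 0.592 and 0.395).

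The genes varied together across libraries to different degrees, which is given as a description over 12 libraries that share their groups. Pearson's r of log2(CPM + 0.5) was 0.828 between Tyrobp and Fcer1g, 0.854 between Tyrobp and Sh2d1b1, 0.857 between Fcer1g and Sh2d1b1 and 0.773 between Tyrobp and Ncr1, and -0.118 between Tyrobp and its neighbour Hcst. The tested genes most like Tyrobp were Cul9 (0.917), Txk (0.898), C230096K16Rik (0.892), Fgd6 (0.886) and Klrb1a (0.873). For Fcer1g they were Klhdc2 (0.95), Klra1 (0.944), Sptbn1 (0.939), Smyd5 (0.932) and Klra3 (0.931). For Ncr1 they were Mfsd3 (0.921), C230096K16Rik (0.888), Mier2 (0.863), Crkl (0.851) and Fam43a (0.845).

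Tyrobp, Fcer1g and Fcgr3 are also strongly expressed by myeloid cells, and the markers of such cells differed between treatments. The summed level of 14 macrophage or monocyte markers ranged from 161 to 237 CPM in non-treated and from 82.4 to 138 CPM in treated GFP- libraries, and from 214 to 299 and from 89.5 to 178 CPM in GFP+ libraries. All 13 that passed the filter had a negative treatment difference in GFP- cells (median -0.98, log2) and 10 of 13 in GFP+ cells (median -0.79). Over GFP+ and GFP- cells, Lyz2 fell by 1.5 (SE 0.295, edgeR adjusted p = 0.0461) and C1qa by 1.0 (SE 0.186, edgeR adjusted p = 0.0317), and none of the 14 was at 0 in all libraries. In GFP+ and GFP- cells taken alone, C1qa stood at -1.03 (SE 0.263) and -0.97 (SE 0.264) and Tyrobp at -0.18 and -1.24. The part of myeloid RNA in the Tyrobp result was not tested.

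Summed dendritic cell markers ranged from 193 to 275 and from 135 to 215 CPM in GFP- libraries without and with treatment, and from 250 to 355 and from 134 to 257 CPM in GFP+ libraries. The 8 NK cell markers, which include Ncr1 and Klrb1c, summed to 484 to 630 and 709 to 1450 CPM in GFP- libraries. In GFP+ libraries they summed to 268 to 377 and 473 to 561 CPM. Gzma, which cytotoxic CD8+ T cells also express, averaged 328 and 877 CPM in GFP- and 87.2 and 242 CPM in GFP+ libraries. With 10 libraries Gzma was called lower and Klrb1c higher in GFP+ than GFP- cells, without and with treatment. In these comparisons 0.339% and 0.17% of all genes passed. None of the 8 markers was called there with 12 libraries. Klre1 averaged 113 and 166 CPM in GFP- and 104 and 131 CPM in GFP+ libraries. In GFP- cells 5 of the 8 had a positive treatment difference and 3 a negative one (median 0.29, log2, fit of 12 libraries). Ncr1 and Klrb1c were among the negative ones (-1.13 and -0.42), and neither passed. Over GFP+ and GFP- cells Gzma was called higher with 12 libraries, where 0.395% of all genes passed. Gzma, Klri2 and Klre1 were called higher with 10, where 1.36% of all genes passed. Gamma-delta T cell markers ranged from 228 to 322 and from 265 to 383 CPM in GFP- libraries and from 172 to 323 and from 169 to 309 CPM in GFP+ libraries. Of these, Trdc ranged from 2.95 to 3.5 and from 3.02 to 7.13 CPM in GFP- libraries. In GFP+ libraries it ranged from 7.37 to 10.1 and from 3.04 to 8.27 CPM, above GFP- without overlap only without treatment. Of the 5 tested markers, 2 had a positive GFP+ to GFP- difference without treatment and 3 a negative one (fit of 12 libraries). The 5 invariant NKT or MAIT cell markers, gene segments of the T cell receptor of which 1 was at 0 throughout, summed to 36.8 to 48.2 and 20.2 to 28.9 CPM in GFP- libraries and to 29.6 to 37 and 19.7 to 33.3 CPM in GFP+ libraries, lower with treatment without overlap in GFP- cells. The 6 B cell markers summed to 100 to 110 and 71.3 to 85 CPM in GFP- libraries and to 145 to 172 and 94.6 to 129 CPM in GFP+ libraries, so that the treated GFP- libraries were the lowest without overlap, as they were for Tyrobp. How many of all genes share either separation was not counted. Only 3 of the 5 invariant NKT or MAIT cell markers and 2 of the 6 B cell markers passed the filter on low counts. Of these B cell genes Cd79a had at most 16 counts in any group, and Ighm was called lower with treatment over GFP+ and GFP- cells in the fit of 10 libraries. The mast cell gene Cpa3 had at most 2 counts in any group and the neutrophil gene S100a8 at most 30. The part of these other cell types in the Tyrobp result was not tested.

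**Figure D4:**
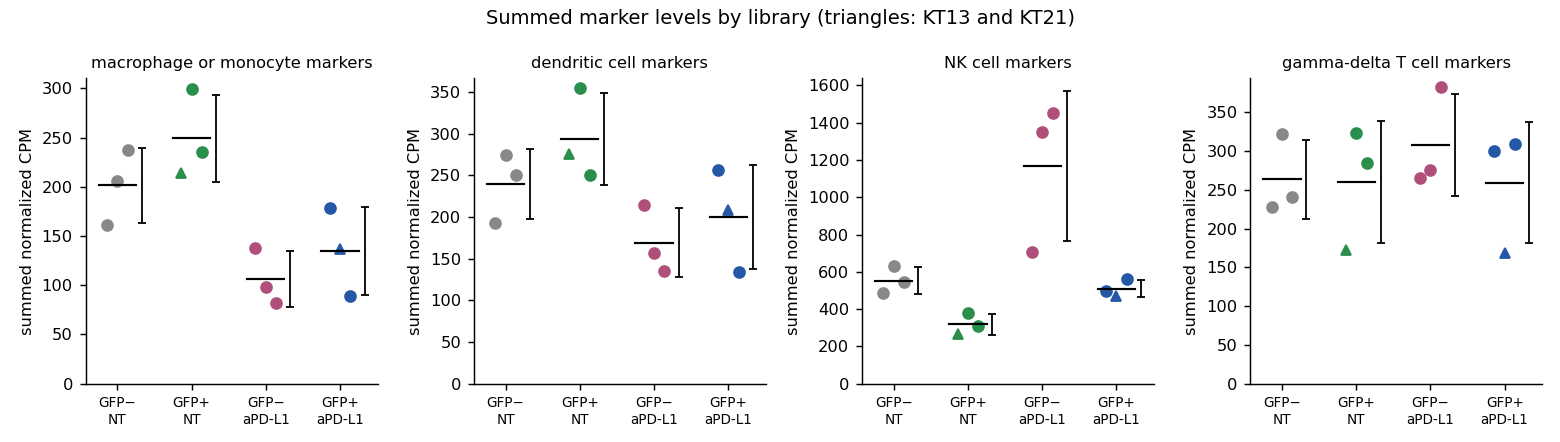
Summed TMM-normalized CPM (y axis, from 0) of the marker lists of macrophages or monocytes, dendritic cells, NK cells and gamma-delta T cells in each of the 12 libraries, by GFP and treatment (x axis), with points for libraries, triangles for KT13 and KT21, a line for the mean and a bar for the SD (n = 3). Macrophage or monocyte markers are lower after anti-PD-L1 in both GFP- (82.4 to 138 CPM) and GFP+ libraries (89.5 to 178 CPM).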

How the data were processed

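RNA of sorted cells was made into 12 QuantSeq 3′ libraries. The authors deposited raw read counts per Ensembl gene, and per their methods these came from Cutadapt trimming, HISAT2 alignment (mm10) and featureCounts. The submitters' processing notes name cutadapt 1.7 and Subread 1.6.4. Strand setting, multi-mapping and annotation release are not given in the sources used here. Symbols came from GENCODE vM21 (52403 of 52636 identifiers matched).

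Counts were fitted in 1 model over the 4 groups with edgeR 4.0.16 under R 4.3.3 (TMM, filterByExpr, quasi-likelihood F test, Benjamini-Hochberg adjustment, called at an adjusted p under 0.05), on 12 libraries and without KT13 and KT21. DESeq2 1.42.0, other scalings and other filters were alternatives. The code was tested on simulated data. The labels give no pairing and no batch, and each library is a pool of 3 mice, so p-values measure the spread between pools. If GFP+ and GFP- libraries share pools, the fits do not use that pairing. No library copied another (chi-square per degree of freedom at least 11.9 over 12 within-group pairs). Reads carry no molecular identifiers, so floors cover counting error only.

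Genes and lists were chosen with earlier results of these data known, so the adjusted p-values of listed genes may be too small. Named are the 8 genes, Zap70, Cd247, Klrk1, Klrb1c, markers, up to 4 called genes per list and comparison, and the 5 genes most correlated with Tyrobp, Fcer1g and Ncr1 (those of Syk are not reported here). Klra8, Fcgr1, Sh2d1b2 and Itgae were named after their values were seen.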

Additional observations from a re-analysis of the deposited data

How the results depend on the processing

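The direction of the Tyrobp differences held under every alternative and every left-out library, and in GFP- cells its difference with anti-PD-L1 passed in 4 of 8 alternatives, among them DESeq2 (adjusted p = 3.24e-05) and no filter on low counts (edgeR adjusted p = 0.00442), and missed the threshold in the other 4 (adjusted p up to 0.0754). None of these fits removes the choice of the genes on values of these same libraries. Depth limits Syk and Zbtb16 throughout. The counts of genes called did not hold, and the cause was not tested. With DESeq2 they were 53, 38, 89, 33 and 180 for GFP+ against GFP- without and with treatment, anti-PD-L1 in GFP+, in GFP- and over both. Without a filter they were 78, 49, 123, 60 and 223, and 10 for the interaction. Without KT13 and KT21 they were 50, 25, 83, 55 and 201. With library totals alone the count for GFP without treatment was 0. When a fit held just the libraries being compared, counts were 0 for GFP after treatment, 0 for anti-PD-L1 in GFP+ and 51 in GFP- cells. Leaving out 1 library gave ranges of 0 to 6, 0 to 7, 0 to 34, 0 to 28 and 27 to 90, and 0 for the interaction.

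Among the treatment and interaction differences, signs turned where the difference was below its SE. Syk with anti-PD-L1 in GFP+ cells was -0.01 with upper-quartile scaling and -0.23 without KT13 and KT21, its mean over both was 0.00 with DESeq2, and its interaction was -0.21 and that of Hcst 0.09 without KT13 and KT21. Leaving out 1 library gave ranges in GFP+ cells of -0.27 to 0.12 (Fcer1g), -0.10 to 0.32 (Hcst), -0.39 to 0.06 (Ncr1) and -0.40 to 0.81 (Syk), in GFP- cells of -0.04 to 0.57 (Fcgr3) and -0.59 to 2.31 (Syk), over both of -0.19 to 0.13 (Fcgr3) and -0.29 to 1.17 (Syk), and for the interaction of -0.23 to 0.19 (Hcst) and -2.27 to 0.82 (Syk).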
